A study of Mus musculus with 30 samples.

Results

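Tumours that transformed mouse embryonic fibroblasts (MEFs) formed in nude mice were set against primary MEF cultures, both wildtype for Smchd1, by expression microarray. The arrays were chosen by their labels alone: 12 of the 30 arrays of the study belong to these 2 groups, 9 from tumours and 3 from primary MEFs. Wildtype tumours came from FVB/N MEFs that had been transformed by knockdown of p53 and overexpression of HRasV12, an activated form of the Ras GTPase. They were taken fresh from 3 nude recipient mice with 3 arrays each, and the mean of a recipient's 3 arrays counted as 1 sample (n = 3). Wildtype primary MEFs were FVB/N cells passaged 2 to 3 times, with neither change (n = 3 arrays). Levels in wildtype transformed MEFs, harvested 2 weeks after transformation (3 arrays), are quoted in places as the stage in between. The labels used here give no strain for the nude mice. They also do not say whether the primary arrays came from separate embryos or cultures, or whether the 3 recipients received 1 transformed culture, so the p-values reflect only how far these samples vary, and that variation may be technical.

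MEF cultures are made from minced embryos. They consist mainly of fibroblasts, which build connective tissue from collagens, elastic fibres and proteoglycans, and early passages also hold other cells of the embryo, such as macrophages, myoblasts, keratinocytes, neural crest derivatives and chondrocytes. A tumour in a mouse holds the injected cells together with the host's blood, vessels and leukocytes. Nude mice lack a functional thymus and are poor in T cells, but they keep B cells, natural killer cells and myeloid cells.

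Values are log2 intensities of the deposited table, quantile normalised together over all 30 arrays, for the 13870 genes with a probe detected on at least 3 arrays. Tumour values are listed for recipients 1, 2 and 3, and primary MEF values for replicates 1, 2 and 3. Differences are log2 values of tumours minus primary MEFs with their standard error (SE), tested with limma, and a gene was called at a Benjamini-Hochberg adjusted p under 0.05 over all 13870 genes. Background, the 95th percentile of the 22865 probes detected on no array, lay at 6.26 to 6.28 in the tumours and at 6.29 in the primary MEFs. Where every sample of a group was at or below it, the difference is given as a bound ("at least N-fold") taken against that level. Replicate variance, as a median over genes, was 0.0993 for tumours and 0.0153 for primary MEFs. The number of arrays limits the precision. All primary arrays lay on 1 chip and the tumour arrays on 3 other chips, so chip and group cannot be told apart.

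The targeted genes were examined first. Trp53, which encodes p53, was at 7.96, 8.0 and 8.86 in tumours, against 10.96, 11.08 and 10.85 in primary MEFs, a difference of -2.69 ± 0.26 (adjusted p = 0.00035). A dimmer Trp53 probe went the other way. It read 8.08, 6.65 and 8.58 in tumours and 6.16, 6.30 and 6.13 in primary MEFs, so the direction rests on the brighter probe, which was detected on all 30 arrays. The Hras probe did not separate the groups, with 10.42, 9.94 and 10.05 in tumours and 10.32, 10.20 and 10.17 in primary MEFs (-0.09 ± 0.17, adjusted p = 0.692). Whether this probe reads the introduced HRasV12 was not tested. Smchd1 read 9.16, 9.46 and 9.33 in tumours and 9.58, 9.61 and 9.55 in primary MEFs (-0.26 ± 0.14, adjusted p = 0.167). Cdkn2a, whose locus encodes the cell cycle inhibitor p16 and the p53 activator p19Arf, averaged 13.34 ± 0.30 in tumours and 6.16 ± 0.11 in primary MEFs (SD, n = 3 each), where no sample was above background. That is at least 132-fold higher (adjusted p = 2.68e-06), and the 3 transformed MEF arrays averaged 14.34 ± 0.08 (SD, n = 3). Its neighbour Cdkn2b, which encodes the inhibitor p15, differed by 3.12 ± 0.33 (adjusted p = 0.000532).

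As a check of the labelled cell type, genes that define fibroblasts were read in both groups. Vim, the intermediate filament vimentin, was at 14.54, 14.94 and 14.50 in tumours and at 14.16, 14.21 and 13.94 in primary MEFs. Pdgfra, a receptor for platelet-derived growth factor, was at 13.15, 13.05 and 12.58 in tumours and at 12.73, 12.52 and 12.75 in primary MEFs. Thy1, a surface glycoprotein of fibroblasts, was at 12.20, 13.08 and 12.87 in tumours and at 11.86, 12.05 and 11.95 in primary MEFs. All 3 genes were far above background in every sample of both groups. Other defining fibroblast genes, Col1a1, Col1a2, Col3a1 and Acta2, were called lower in tumours and are described below. Among defining markers of other cells, the macrophage genes Csf1r and Adgre1 and the endothelial genes Pecam1 and Cdh5 were also above background in every sample of both groups. The keratinocyte gene Krt5 and the adipocyte gene Adipoq were not above background in any tumour. The pan-leukocyte gene Ptprc and the T cell gene Cd3e had too few detected arrays to be tested.

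Of the 13870 genes, 2941 (21.2%) were called higher and 3240 (23.4%) lower in tumours, 44.6% in all. With a required change beyond 2-fold (limma treat), 482 genes (3.48%) were higher and 661 (4.77%) lower, 8.24% in all. Without a test, every tumour value lay above every primary value in 29.3% of genes and below in 30.1%. The higher share of calls depended on the scaling. Of the calls 47.6% were higher after joint quantile normalisation, 71.1% on the values as deposited (5032 higher and 2045 lower) and 58.6% with each array centred on its median (3633 and 2565). The median difference of all genes was 0.02, 0.35 and 0.17 under these 3 scalings, and differences below are relative to the first. Calls higher numbered 1777, 1754 and 1811 without primary replicate 1, 2 or 3. Among the 482 genes more than 2-fold higher, 102 were not above background in any primary sample, and 48 of these were not above it in transformed MEFs either. Among the 661 genes more than 2-fold lower, 206 were not above background in any tumour, 114 of them also not in transformed MEFs.

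Genes of 17 non-fibroblast cell types and of 6 fibroblast groups were then read as lists. Of 250 non-fibroblast marker genes, 170 were tested, 70 were on the array but detected on fewer than 3 arrays and 10 were not analysed here. Of the 170, 47 were called higher and 63 lower in tumours, with a median difference of -0.11. The 47 and the 63 belonged mostly to different lists. Class II, pan-leukocyte, adult globin and endothelial genes were among the first, and muscle, keratinocyte, neural and cartilage genes among the second. Blood cell lists also had calls both ways, such as macrophage (5 higher and 2 lower), neutrophil (1 and 5) and mast cell genes (2 and 2). Of 102 fibroblast genes 94 were tested, and their median was -0.95. Of the 94, 18 (19.1%) were higher and 49 (52.1%) lower, beside 21.2% and 23.4% of all genes. The higher share was thus near that of all genes. Counts of each list below are to be read beside these shares of all genes. The 18 became 9, 8 and 7 without primary replicate 1, 2 or 3 and 28 on the values as deposited. In bulk samples, fewer cells of a type and less RNA per cell cannot be told apart.

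Genes of antigen presentation by MHC class II were mostly higher. Class II molecules present extracellular peptides to helper T cells and are made by macrophages, dendritic cells and B cells under the control of the coactivator Ciita. Their promoters are known for a conserved array of elements that ends in a Y box, whose core is ATTGG on the gene's strand. The windows from 250 bases before to 50 bases after the annotated start are shown for 3 class II genes called higher, 5′ to 3′ on the gene's strand, with the core in capitals (RefSeq, GRCm38.p6). They are the windows of H2-Eb1 at chr17:34305617-34305916, H2-DMb1 at chr17:34152941-34153240 and H2-DMb2 at chr17:34144999-34145298, all on the plus strand.
H2-Eb1: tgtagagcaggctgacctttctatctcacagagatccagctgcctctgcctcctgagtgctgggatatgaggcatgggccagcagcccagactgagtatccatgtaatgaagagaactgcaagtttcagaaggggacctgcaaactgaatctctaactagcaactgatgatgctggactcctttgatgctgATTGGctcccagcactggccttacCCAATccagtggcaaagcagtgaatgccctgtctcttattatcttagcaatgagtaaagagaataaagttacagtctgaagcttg
H2-DMb1: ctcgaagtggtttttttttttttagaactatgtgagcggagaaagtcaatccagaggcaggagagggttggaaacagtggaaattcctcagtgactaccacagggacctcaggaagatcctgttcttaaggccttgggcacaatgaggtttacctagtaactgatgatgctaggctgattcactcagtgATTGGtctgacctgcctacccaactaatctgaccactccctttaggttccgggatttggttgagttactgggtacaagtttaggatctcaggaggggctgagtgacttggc
H2-DMb2: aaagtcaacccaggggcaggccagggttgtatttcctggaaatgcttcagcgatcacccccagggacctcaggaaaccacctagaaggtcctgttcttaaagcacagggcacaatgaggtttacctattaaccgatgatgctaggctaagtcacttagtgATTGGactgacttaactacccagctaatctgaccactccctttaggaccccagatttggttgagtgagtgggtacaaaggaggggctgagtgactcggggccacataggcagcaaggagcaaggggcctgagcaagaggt
The core began 59 bases before the start in H2-Eb1, with a match on the other strand (CCAAT) at 35, at 61 in H2-DMb1 and at 90 in H2-DMb2. Searched on both strands, it was present in a window of all 6 class II list genes that have one in the table (H2-Aa, H2-DMa, H2-DMb1, H2-DMb2, H2-Eb1 and H2-Oa), and in 37.4% of all 32851 windows. In H2-DMa the match began 198 bases before the start, and a further window of that gene is without it. A match describes the letters only.

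Of 10 class II genes 9 were tested, and 8 (88.9%) were called higher and none lower, beside 21.2% of all genes higher. The median was 4.24 against 0.02 over all genes. For 5 of the 9, no primary sample was above background. Genes that low in primary MEFs could hardly pass the detection filter except through other arrays, so the count depends in part on that filter. Cd74, the invariant chain that guides class II molecules to the endosome, was at 13.75, 13.99 and 13.66 in tumours, against 6.71, 6.79 and 6.42 in primary MEFs. The difference was 7.16 ± 0.17, or 143-fold (adjusted p = 1.78e-06). The class II beta chain gene H2-Ab1 was at 13.02, 12.83 and 11.97 in tumours, against 6.08, 6.11 and 5.95 in primary MEFs, where no sample was above background. It was at least 79.7-fold higher (adjusted p = 1.23e-05). H2-Eb1, the other beta chain, read 12.68, 12.94 and 12.26 in tumours, against 5.92, 6.01 and 5.99 in primary MEFs, and was at least 80.8-fold higher (adjusted p = 4.04e-06). Each of these 3 genes was high in every tumour and at or near background in every primary sample.

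The accessory genes followed. H2-DMb1 and H2-DMb2, subunits of the chaperone that loads peptides, differed by 4.74 ± 0.28 and 4.24 ± 0.24 (adjusted p = 4.1e-05 and 3.56e-05). H2-DMa, the chaperone's other subunit, was above background in both groups, with 10.77, 11.11 and 10.20 in tumours and 8.25, 8.07 and 7.97 in primary MEFs. Ciita itself was at 8.86, 9.07 and 8.43 in tumours, against 6.07, 5.91 and 5.96 in primary MEFs, at least 5.65-fold higher (adjusted p = 7.84e-05). The gene not called was H2-Aa, whose probe read 6.79, 6.91 and 6.08 in tumours and 5.96, 5.94 and 6.03 in primary MEFs (adjusted p = 0.0708), with an adjusted p of 0.00374 without recipient 3 and 0.0311 on the deposited values. H2-Ea, the E alpha chain, was not in the list. It was at 11.92, 12.27 and 11.43 in tumours, against 6.05, 6.05 and 5.95 in primary MEFs, at least 48-fold higher (adjusted p = 9.34e-06). The H2 haplotype of FVB/N is known not to express the E alpha chain. Which cells gave the H2-Ea signal was not tested. In transformed MEFs the mean level over the 9 tested list genes was 6.24 to 6.27, against 10.13 to 10.84 in tumours and 6.38 to 6.54 in primary MEFs.

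Most macrophage genes were already well above background in primary cultures. Of 21 macrophage markers 18 were tested, 5 (27.8%) were higher and 2 lower, with a median of 0.53, beside 21.2% of all genes higher. The counts were 9 higher and 0 lower on the values as deposited and 8 and 0 with centred arrays. Lyz1, a lysozyme gene, was at 14.03, 14.20 and 14.41 in tumours and at 14.43, 14.12 and 14.31 in primary MEFs. The groups overlapped and did not differ beyond their spread (-0.07 ± 0.17, adjusted p = 0.737), while the transformed MEFs were at background with a mean of 5.98. C1qb, a subunit of the complement starter C1q, likewise read 11.11, 11.59 and 11.60 in tumours and 11.81, 11.42 and 11.83 in primary MEFs. Adgre1, which encodes the macrophage antigen F4/80, was at 9.63, 9.53 and 8.02 in tumours and at 8.18, 7.98 and 8.51 in primary MEFs (0.84 ± 0.43, adjusted p = 0.155), and its dimmest probe differed by -0.58. Without recipient 3 the Adgre1 difference was 1.36 (adjusted p = 0.00254). Lyz2, the other lysozyme gene of the list, differed by -0.74 at its brighter probe and by 1.13 at its dimmer probe. The brighter probe passed the test without recipient 2 (-0.98, adjusted p = 0.0483). Whether the Lyz1 probe also reads Lyz2 was not tested.

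A subset of macrophage genes was higher in tumours. Clec4n, the fungal pattern receptor dectin-2, was at 11.86, 12.07 and 10.80 in tumours, against 7.99, 7.61 and 7.92 in primary MEFs (3.74 ± 0.34, adjusted p = 0.000259). Cd163, the haemoglobin scavenger receptor, read 10.17, 9.29 and 7.68 in tumours, against 6.03, 6.02 and 5.98 in primary MEFs, and was at least 6.76-fold higher (adjusted p = 0.00552). Csf1r, the receptor for macrophage colony-stimulating factor, differed by 1.73 ± 0.19 (adjusted p = 0.000538). These 3 genes were higher in every tumour than in every primary sample. Cd68, a lysosomal protein gene, was lower at 10.75, 11.60 and 10.30 in tumours, against 12.08, 11.65 and 12.01 in primary MEFs (-1.03 ± 0.33, adjusted p = 0.0411). That call was lost on the values as deposited (-0.54, adjusted p = 0.201), without any 1 primary replicate (adjusted p = 0.0771 to 0.132) and without tumour recipient 1 or 3 (0.109 and 0.0744). Counts in this list moved with single samples: 3 were higher without primary replicate 2 and 8 without recipient 3. None was lower without recipient 1 or without any 1 primary replicate, 4 were lower without recipient 2 and 1 without recipient 3. The mean level over the list was 10.54 to 11.41 in tumours and 10.17 to 10.45 in primary MEFs. The part of macrophage number in the class II result was not tested.

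Genes expressed across leukocytes were also higher in part. Of 18 such genes 16 were tested, and 8 were called higher and none lower, with a median of 0.70. Cd52, a small surface antigen of lymphocytes and myeloid cells, was at 11.58, 12.31 and 11.53 in tumours, against 8.67, 8.55 and 8.81 in primary MEFs (3.13 ± 0.24, adjusted p = 0.000116). Coro1a, an actin-binding protein of leukocytes, differed by 1.37 ± 0.25 (adjusted p = 0.00537) and Itgal, the alpha chain of the integrin LFA-1, by 1.05 ± 0.16 (adjusted p = 0.00264). The largest difference in the list was that of Cytip, a cytohesin-binding protein of haematopoietic cells, with 12.31, 12.51 and 11.75 in tumours, against 7.11, 6.75 and 7.19 in primary MEFs (5.17 ± 0.24, adjusted p = 1.57e-05). Cytip was the exception among these genes in that transformed MEFs, which gave macrophage genes at background, had a mean of 10.92 ± 0.24 (SD, n = 3). The tetraspanin gene Cd53 read 10.67, 10.44 and 8.15 in tumours, against 7.24, 7.09 and 7.80 in primary MEFs (2.37 ± 0.64, adjusted p = 0.023), with recipient 3 the lowest tumour. Its call was lost without any 1 primary replicate (adjusted p = 0.0565 to 0.0855) and without recipient 1 or 2 (0.0708 and 0.0514). Lcp1, an actin bundler of leukocytes, differed by 0.37 ± 0.34 (adjusted p = 0.41). Without recipient 2 the list had 7 higher and 1 lower, with a median of 0.44.

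Lymphoid genes were sparse in both groups. All 4 tested of 11 natural killer genes were higher, with a median of 1.89, beside 21.2% of all genes higher. For 3 of these 4, no primary sample was above background. A gene that low in primary MEFs could hardly pass the detection filter except through other arrays. The count therefore says little about the list as a whole. Prf1, the pore-forming protein perforin of cytotoxic cells, was at 11.89, 11.51 and 11.61 in tumours, against 7.84, 7.72 and 7.86 in primary MEFs (3.86 ± 0.16, adjusted p = 1.17e-05). Klrd1, the inhibitory receptor chain CD94, read 8.23, 8.35 and 7.28 in tumours and 5.92, 5.92 and 5.94 in primary MEFs, at least 3.16-fold higher (adjusted p = 0.00181). Nkg7, a granule membrane gene, was at least 1.42-fold higher (adjusted p = 0.00551). The natural killer receptor genes Ncr1, Klrb1c and Klrk1, the granzyme gene Gzmb and the transcription factor gene Eomes were detected on too few arrays to be tested. Prf1 was at 8.37 ± 0.16 in transformed MEFs (SD, n = 3), and Klrg1, at least 3.11-fold higher in tumours, was at 7.89 there.

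Of 13 T cell genes 4 were tested, with none higher and 2 lower. Cd3d, Cd3e, Cd3g, Cd4 and Cd8a, which encode the T cell receptor complex and its coreceptors, were detected on too few arrays. Lck, the proximal T cell kinase, was at 6.48, 6.74 and 6.74 in tumours, against 7.39, 7.44 and 7.40 in primary MEFs (-0.76 ± 0.14, adjusted p = 0.00555). Cd28, a costimulatory receptor, was not above background in tumours and was at least 1.79-fold lower there (adjusted p = 0.00227). Of 11 B and plasma cell genes 3 were tested and 1 was higher, Fcrla, an intracellular Fc receptor-like gene of B cells, by 1.55 ± 0.20 (adjusted p = 0.0013). Ighm, the heavy chain of IgM, was at 6.28, 6.54 and 6.56 in tumours and at 6.18, 6.12 and 6.03 in primary MEFs (adjusted p = 0.0918, and 0.0209 on the deposited values).

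Among neutrophil genes the alarmin pair S100a8 and S100a9 was high in 1 tumour. Of 12 genes 9 were tested, 1 was higher and 5 lower, with a median of -0.77. With genes detected on at least 9 arrays only, 1 was higher and 1 lower, and the median turned to 1.37. S100a8, a calcium-binding alarmin of neutrophils, was at 10.98, 13.89 and 10.12 in tumours and at 10.85, 9.91 and 10.60 in primary MEFs (1.21 ± 0.90, adjusted p = 0.307). Its partner S100a9 was at 10.07, 13.46 and 8.30 in tumours and at 9.33, 8.86 and 9.53 in primary MEFs (1.37 ± 1.16, adjusted p = 0.37). For both genes recipient 2 was high, and the other recipients lay within or near the range of the primary samples. Csf3r, the receptor for granulocyte colony-stimulating factor, differed by 1.69 ± 0.41 (adjusted p = 0.0156). It lost its call without any 1 primary replicate (adjusted p = 0.0515 to 0.064), when none of the list was higher, and 2 were higher without recipient 2.

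The 5 neutrophil genes that fell were 4 granule protein genes and Stfa1. Mpo, myeloperoxidase, was at 5.96, 6.01 and 5.99 in tumours, against 8.35, 8.27 and 8.34 in primary MEFs, at least 4.14-fold lower (adjusted p = 3.04e-05). Ltf, lactoferrin, was at least 3.75-fold lower (adjusted p = 0.000166) and Ngp, a neutrophilic granule protein, at least 1.67-fold lower (adjusted p = 0.00919). Neither was above background in any tumour. Stfa1, a stefin A protease inhibitor, was at 6.54, 8.38 and 6.00 in tumours, against 12.54, 13.89 and 13.08 in primary MEFs (-6.20 ± 0.64, adjusted p = 0.000445), and stefin A copies are close enough to share a probe. Camp, cathelicidin, was at least 1.62-fold lower (adjusted p = 0.0243), a call lost on the deposited values and without primary replicate 1 or 3 or recipient 1.

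All 9 mast cell genes were tested, 2 were higher and 2 lower, 22.2% each way and near the 21.2% and 23.4% of all genes. On the deposited values 5 were higher and 1 lower. Tpsab1, a tryptase, was at 10.53, 10.96 and 10.82 in tumours, against 8.52, 8.28 and 8.55 in primary MEFs (2.32 ± 0.17, adjusted p = 0.000108), and the chymase Mcpt4 differed by 2.07 ± 0.34 (adjusted p = 0.00337). Another chymase, Cma1, was lower at 7.51, 8.09 and 7.51 in tumours, against 8.67, 8.92 and 8.67 in primary MEFs (-1.05 ± 0.20, adjusted p = 0.00644). Kit, the stem cell factor receptor, differed by -0.92 ± 0.22 (adjusted p = 0.0147), a call lost on the deposited values (adjusted p = 0.0803) and without primary replicate 1 or 2 (0.0648 and 0.0568). Cpa3, a mast cell carboxypeptidase, differed by -0.34 ± 0.29 (adjusted p = 0.377) and by -0.67 without recipient 2 (adjusted p = 0.00918). Lower calls numbered 1 without primary replicate 1 or 2, and higher calls 4 without recipient 2.

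Adult globin genes were among the higher genes. Of 18 erythroid genes 8 were tested, 5 were higher and 1 lower, with a median of 1.85 that was 2.95 over genes detected on at least 9 arrays. Hba-a1, adult alpha globin, was at 15.01, 14.82 and 14.17 in tumours, against 11.94, 11.13 and 11.56 in primary MEFs (3.13 ± 0.29, adjusted p = 0.000303). Hbb-b1, adult beta globin, was at 14.73, 14.83 and 13.67 in tumours, against 10.75, 9.53 and 10.39 in primary MEFs (4.19 ± 0.41, adjusted p = 0.000387). Hba-x, the embryonic zeta globin, went the other way. It read 6.08, 6.08 and 6.12 in tumours, against 8.76, 7.53 and 7.93 in primary MEFs, at least 3.5-fold lower and not above background in any tumour (adjusted p = 0.00249). Alas2, the erythroid enzyme that starts haem synthesis, was at 8.81, 9.92 and 7.76 in tumours and not above background in primary MEFs (at least 5.82-fold higher, adjusted p = 0.00419). Adult globin copies are nearly identical, so their probes cannot separate single genes.

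Endothelial genes were higher in part. Of 18 such genes 15 were tested, with a median of 0.77. Of the 15, 8 (53.3%) were higher and 1 (6.67%) lower, beside 21.2% and 23.4% of all genes. With recipient as a random block 4 were higher. Vwf, von Willebrand factor, was at 8.19, 7.74 and 8.78 in tumours, against 6.07, 6.05 and 6.08 in primary MEFs, where it was not above background (at least 3.85-fold higher, adjusted p = 0.000878). Cdh5, the endothelial cadherin, was at 10.98, 9.53 and 10.60 in tumours, against 8.79, 8.34 and 8.16 in primary MEFs (1.94 ± 0.38, adjusted p = 0.00656). Plvap, a protein of endothelial fenestrae, differed by 1.80 ± 0.26 (adjusted p = 0.00186) and Flt1, a receptor for vascular endothelial growth factor, by 2.32 ± 0.44 (adjusted p = 0.00583). Tek, the angiopoietin receptor, was lower, with 6.57, 6.60 and 7.39 in tumours, against 8.40, 8.94 and 8.55 in primary MEFs (-1.78 ± 0.27, adjusted p = 0.00235). Pecam1, the adhesion molecule CD31, was at 8.05, 8.22 and 8.92 in tumours and at 7.49, 7.47 and 7.25 in primary MEFs (0.99 ± 0.25, adjusted p = 0.0165). Its call was lost without any 1 primary replicate (adjusted p = 0.0531 to 0.0693), and 4 endothelial genes in place of 8 were then higher. 2 were lower without recipient 3.

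Of 11 pericyte and vascular smooth muscle genes 8 were tested, 1 was higher and 3 lower, with a median of -0.53. The median was -0.13 without recipient 2, -0.25 over genes detected on at least 9 arrays and -0.34 with centred arrays. On the deposited values it was -0.16, with 3 higher and 2 lower. Cspg4, the proteoglycan NG2, was at 11.04, 9.39 and 10.25 in tumours, against 8.0, 7.73 and 7.73 in primary MEFs (2.41 ± 0.39, adjusted p = 0.00311). Kcnj8, a potassium channel of pericytes, differed by -1.42 ± 0.22 (adjusted p = 0.00287), and Abcc9, its regulatory partner, by -0.82 ± 0.19 (adjusted p = 0.0126). The Abcc9 call was lost without primary replicate 1 or 2, when 1 gene of the list was lower, and 2 were higher without recipient 1 or 2. Actg2, an enteric smooth muscle actin, differed by -2.08 ± 0.69 (adjusted p = 0.0457), and its call was lost without any 1 primary replicate (0.0991 to 0.133), without recipient 2 or 3 (0.088 and 0.0704) and on the deposited values (0.0886). Without recipient 3 the Actg2 difference was -1.38.

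**Figure D1:**
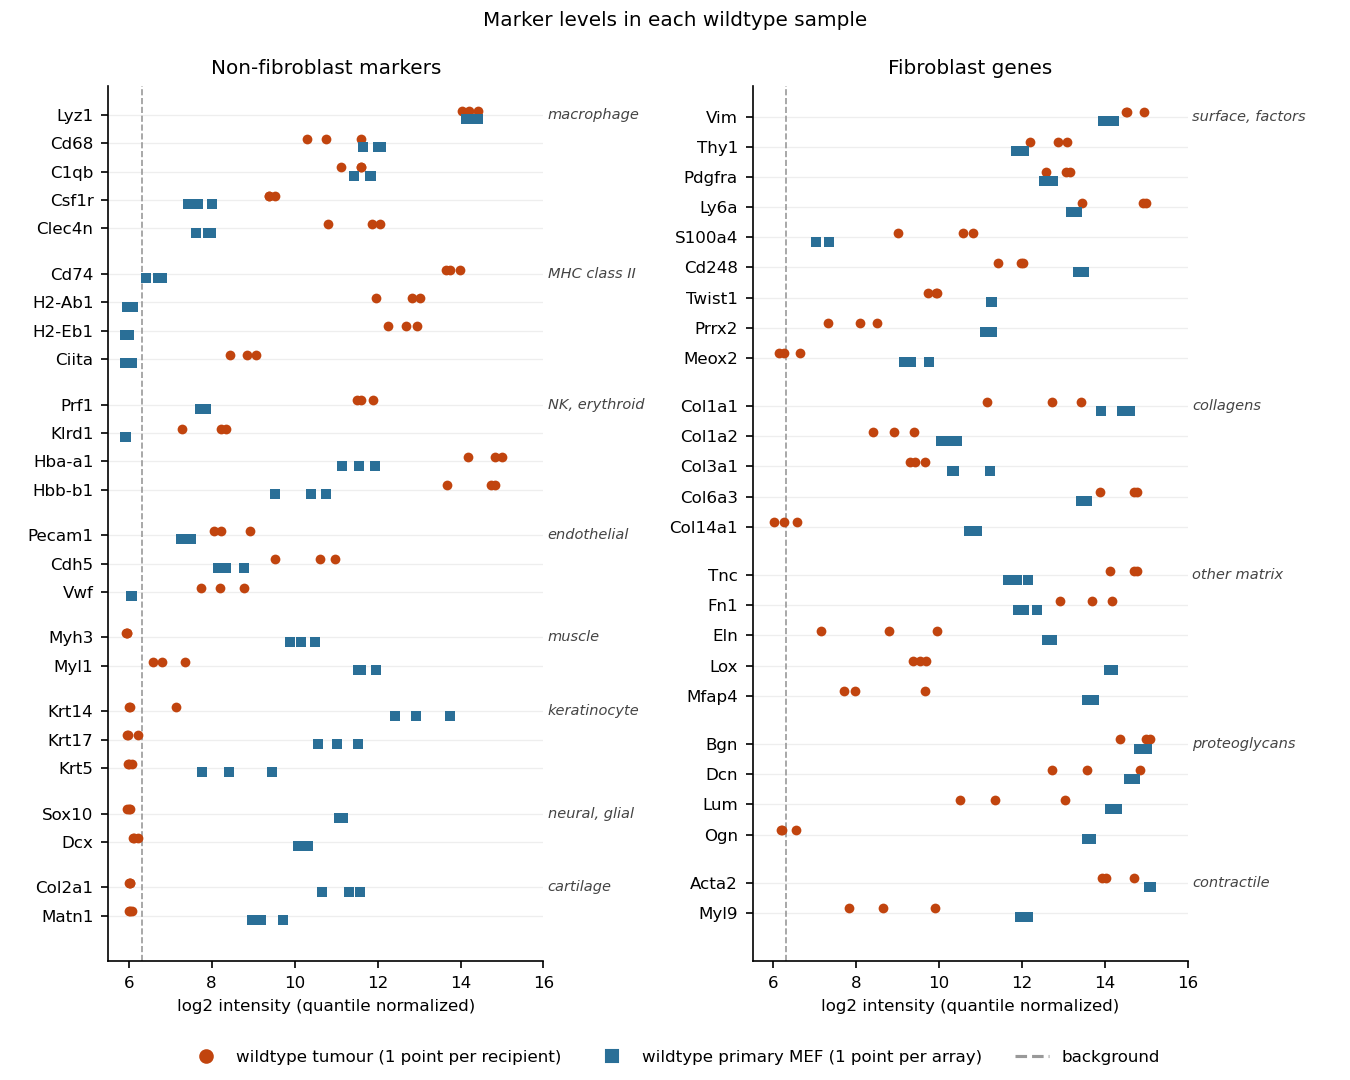
Log2 intensity (horizontal axis) of 25 non-fibroblast markers, left, and 25 fibroblast genes, right, with 1 circle per wildtype tumour recipient and 1 square per wildtype primary MEF array. The dashed line is background, genes were chosen after their values were seen, and class II circles lie far right of the squares while those of the plotted muscle, keratinocyte, neural and cartilage genes lie left of them.

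Most tested genes of muscle, epidermis and the nervous system were lower in tumours, with 87.5%, 64.7% and 80% called lower beside 23.4% of all genes. Of them, 4 of 16, 6 of 17 and 5 of 10 were not above background in any tumour. Genes that low in tumours could hardly pass the detection filter except through other arrays, so these counts depend in part on that filter. Over genes detected on at least 9 arrays, 6 keratinocyte, 5 cartilage and bone and 3 neural and glial genes were lower. Of 22 skeletal muscle genes 16 were tested, and 14 were lower and none higher, with a median of -1.57. Myh3, the embryonic myosin heavy chain, was at 5.97, 5.94 and 5.97 in tumours, against 9.90, 10.50 and 10.15 in primary MEFs, at least 15-fold lower (adjusted p = 1.38e-05). Myl1, a fast myosin light chain, was at 7.35, 6.58 and 6.81 in tumours, against 11.53, 11.96 and 11.61 in primary MEFs (-4.79 ± 0.24, adjusted p = 2.13e-05). Myog, a myogenic transcription factor, was at least 3.33-fold lower (adjusted p = 0.000902). Acta1, skeletal actin, was lower but stayed above background, with 9.61, 8.55 and 8.04 in tumours, against 10.94, 11.38 and 10.97 in primary MEFs (-2.36 ± 0.39, adjusted p = 0.00329). Primary replicate 2 was the highest sample for each of these 4 genes.

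Of 19 keratinocyte and epithelial genes 17 were tested, 11 were lower and 2 higher, with a median of -2.13. Krt14, a keratin of the basal layer of the epidermis, was at 7.14, 6.01 and 6.03 in tumours, against 12.41, 13.74 and 12.93 in primary MEFs (-6.63 ± 0.43, adjusted p = 5.92e-05). Its partner Krt5 was at 5.99, 6.00 and 6.07 in tumours, against 7.76, 9.46 and 8.41 in primary MEFs, at least 4.84-fold lower (adjusted p = 0.00278). Lor, loricrin of the cornified envelope, differed by -4.91 ± 0.71 (adjusted p = 0.00195). For all 3 genes primary replicate 2 was the highest and replicate 1 the lowest of the primary samples. The 2 genes that rose were Krt18, the keratin of simple epithelia, and Cdh1, the epithelial cadherin. Cdh1 was at 10.34, 9.77 and 8.49 in tumours, against 7.39, 7.12 and 7.49 in primary MEFs (2.20 ± 0.44, adjusted p = 0.00731), and Krt18 is described with the single samples.

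Of 18 neural and glial genes 10 were tested, 8 were lower and 1 higher, with a median of -3.40 that was -1.34 over genes detected on at least 9 arrays. Sox10, a transcription factor of neural crest and glia, was at 6.02, 5.95 and 6.01 in tumours, against 11.11, 11.07 and 11.16 in primary MEFs, at least 28.7-fold lower (adjusted p = 2.17e-06). Dcx, a microtubule protein of migrating neurons, was at least 15.1-fold lower (adjusted p = 6.88e-06) and Syt1, a synaptic vesicle calcium sensor, at least 9.4-fold lower (adjusted p = 8.47e-06). None of the 3 was above background in any tumour. The gene that rose was Nefm, the middle neurofilament chain, at 11.53, 11.27 and 10.74 in tumours, against 8.14, 8.14 and 8.51 in primary MEFs (2.92 ± 0.24, adjusted p = 0.000158), and it averaged 10.60 in transformed MEFs. Gap43, a growth cone protein, was at 10.72, 12.05 and 7.68 in tumours and at 10.21, 10.02 and 10.35 in primary MEFs (-0.04 ± 0.99, adjusted p = 0.976). Without recipient 3 it differed by 1.19 (adjusted p = 0.0429), and 2 genes of the list were then higher.

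Skeletal tissue and fat genes were mostly lower as well. Of 14 cartilage and bone genes 12 were tested, 9 were lower and 1 higher, with a median of -2.25. Col2a1, the collagen of cartilage, was at 6.01, 6.04 and 6.03 in tumours, against 11.57, 11.32 and 10.67 in primary MEFs, at least 30.2-fold lower (adjusted p = 1.68e-05). Matn1, a cartilage matrix protein, was at least 8.14-fold lower (adjusted p = 6.39e-05), and Sp7, the osteoblast transcription factor osterix, at least 3.88-fold lower (adjusted p = 7.21e-05). Sox9, the transcription factor of chondrocyte precursors, was the higher gene, at 13.35, 12.64 and 12.87 in tumours, against 12.09, 12.20 and 11.93 in primary MEFs (0.88 ± 0.21, adjusted p = 0.0148), with a transformed mean of 12.97. The Sox9 call was lost without primary replicate 1 or 3 (adjusted p = 0.0554 and 0.0643). No gene of the list was called higher without primary replicate 1 or 3, and 2 were without recipient 2. Of 5 tested of 11 adipocyte genes 3 were lower. Lpl, lipoprotein lipase, was at 7.43, 8.11 and 8.75 in tumours, against 13.62, 13.56 and 13.81 in primary MEFs (-5.57 ± 0.32, adjusted p = 3.9e-05). Adipoq, the fat hormone adiponectin, was not above background in tumours and at least 1.85-fold lower (adjusted p = 0.00144).

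Of 14 hepatic secretory genes 7 were tested and 2 were lower, 28.6% beside 23.4% of all genes, and none was higher. Ttr, the thyroid hormone carrier transthyretin, was at 5.94, 5.94 and 5.98 in tumours, against 13.16, 12.98 and 13.49 in primary MEFs, at least 123-fold lower (adjusted p = 1.74e-06). Trf, transferrin, differed by -0.98 ± 0.27 (adjusted p = 0.025), a call lost on the deposited values and without primary replicate 1 or 3 or recipient 1. Lower calls in this list numbered 1 without recipient 1 or primary replicate 1 or 3, and 4 without primary replicate 2. Alb and Afp, albumin and alpha fetoprotein, were detected on too few arrays to be tested.

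**Figure D2:**
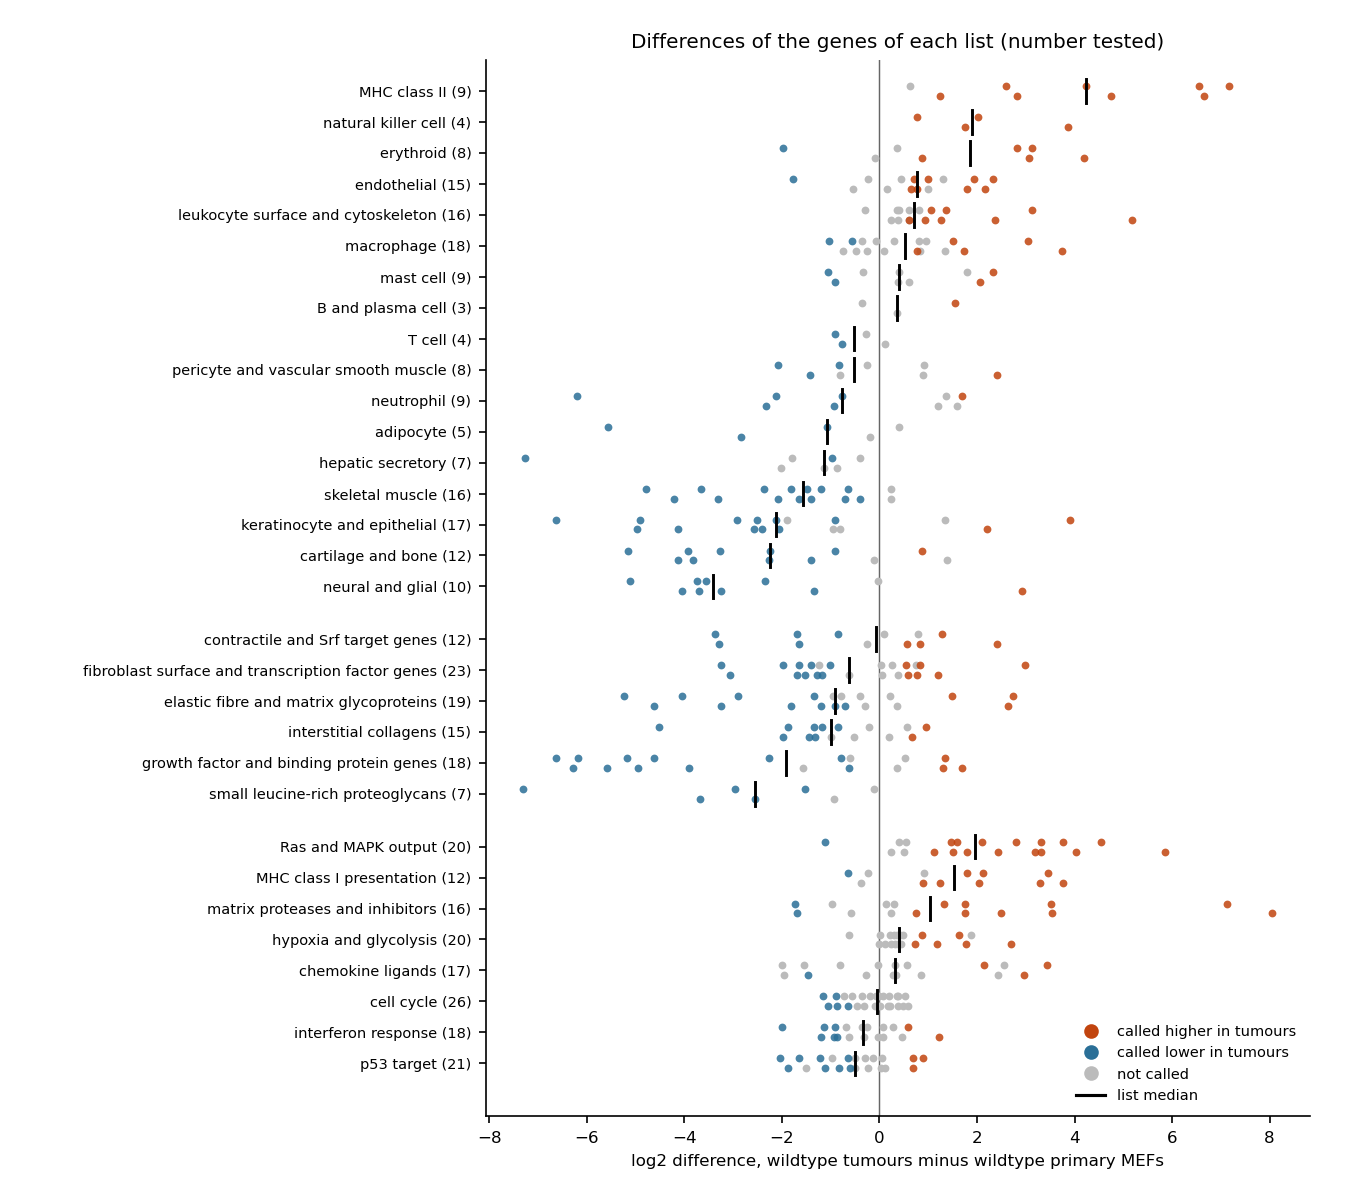
Log2 difference, wildtype tumours minus wildtype primary MEFs (horizontal axis), of every tested gene of 31 lists, non-fibroblast lists above, fibroblast lists in the middle and other gene programmes below, each ordered by its median (black bar). Red points were called higher in tumours, blue lower and grey not called, with MHC class II at a median of 4.24 and neural and glial genes at -3.40.

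The fibroblast genes did not all fall, though the share of them called higher was near that of all genes. Surface and transcription factor genes gave 6 higher and 10 lower of 23 tested, with a median of -0.62 that was -0.14 on the deposited values, -0.32 with centred arrays and -0.29 over genes detected on at least 9 arrays. S100a4, a calcium-binding protein of fibroblasts and of motile cells, was at 10.81, 10.57 and 9.01 in tumours, against 7.04, 7.03 and 7.35 in primary MEFs (2.99 ± 0.45, adjusted p = 0.00237). Ly6a, the surface antigen Sca-1, was at 14.98, 13.44 and 14.91 in tumours, against 13.19, 13.20 and 13.33 in primary MEFs (1.20 ± 0.40, adjusted p = 0.0469). Thy1 and Vim differed by 0.76 ± 0.24 and 0.55 ± 0.18 (adjusted p = 0.0389 and 0.0401), while Pdgfra did not pass the test (0.26 ± 0.19, adjusted p = 0.306) and did on the values as deposited (0.70, adjusted p = 0.02). The rises were the less stable side of this list. The list had 1 higher gene without any 1 primary replicate, 3 without recipient 1, 2 without recipient 3 and 10 on the deposited values. The Ly6a call was lost without any 1 primary replicate (adjusted p = 0.113 to 0.13) and without recipient 1 or 3 (0.136 and 0.105). The Vim call was lost without any 1 primary replicate (adjusted p = 0.0865 to 0.138) or recipient 1 (0.0572), and that of Thy1 without any 1 primary replicate (0.0941 to 0.125) or recipient 2 or 3 (0.0649 and 0.0791).

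The genes that fell were mostly transcription factors of embryonic mesenchyme and surface proteins of stromal cells. Prrx2, a paired-type homeobox gene of limb and facial mesenchyme, was at 7.31, 8.49 and 8.10 in tumours, against 11.27, 11.25 and 11.11 in primary MEFs (-3.25 ± 0.29, adjusted p = 0.000267). Meox2, a homeobox gene of mesoderm, was at 6.14, 6.27 and 6.65 in tumours, against 9.32, 9.16 and 9.75 in primary MEFs (-3.06 ± 0.22, adjusted p = 8.99e-05). Twist1, a helix-loop-helix factor of mesenchyme, differed by -1.40 ± 0.14 (adjusted p = 0.000374) and Tbx15, a T-box factor, by -1.98 ± 0.41 (adjusted p = 0.00828). Cd248, the stromal surface protein endosialin, was at 12.01, 11.42 and 11.98 in tumours, against 13.35, 13.46 and 13.50 in primary MEFs (-1.64 ± 0.20, adjusted p = 0.000857). Fap, the fibroblast activation protease, differed by -1.70 ± 0.42 (adjusted p = 0.0158), a call lost without any 1 primary replicate (0.0549 to 0.064) or recipient 1 (0.0547). Twist2, by contrast, differed by 0.39 ± 0.25 (adjusted p = 0.241) and by 0.87 on the deposited values (adjusted p = 0.0254).

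All 15 interstitial collagens were tested, with 8 lower and 2 higher and a median of -1.0. Col1a1, the main chain of type I collagen, was at 12.72, 11.16 and 13.41 in tumours, against 14.61, 14.42 and 13.91 in primary MEFs (-1.88 ± 0.54, adjusted p = 0.0285). Every tumour was below every primary sample, yet the call was lost without any 1 primary replicate (0.0621 to 0.101) or recipient 1 (0.0579), and the difference was -1.25 without recipient 2. Col1a2, its partner chain, differed by -1.34 ± 0.27 (adjusted p = 0.00695), and Col3a1 by -1.17 ± 0.27 (adjusted p = 0.0126), which was not called on the deposited values (-0.72, adjusted p = 0.0554). Col14a1, a collagen that binds fibril surfaces, was at 6.27, 6.03 and 6.57 in tumours, against 10.92, 10.81 and 10.71 in primary MEFs (-4.52 ± 0.18, adjusted p = 1.11e-05). Col6a3, a chain of the beaded filaments of type VI collagen, was higher at 14.71, 13.87 and 14.76 in tumours, against 13.42, 13.47 and 13.56 in primary MEFs (0.96 ± 0.26, adjusted p = 0.0212), and Col5a3, a minor fibril chain, by 0.66 ± 0.18 (adjusted p = 0.0228). The Col6a3 call was lost without any 1 primary replicate (0.0643 to 0.0778) or recipient 1 (0.0657), and that of Col5a3 without primary replicate 2 or 3 (0.0823 and 0.0893). Higher calls numbered 1 without primary replicate 1 or recipient 1, 0 without primary replicate 2 or 3 and 4 without recipient 2. Recipient 2 was the lowest tumour for Col1a1, Col1a2 and Col6a3.

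Elastic fibre genes and matrix glycoproteins moved apart. Of 24 genes 19 were tested, 10 were lower and 3 higher, with a median of -0.91 that was -0.50 without recipient 2 and -0.51 on the deposited values. Eln, elastin, was at 8.79, 7.14 and 9.94 in tumours, against 12.72, 12.66 and 12.59 in primary MEFs (-4.04 ± 0.63, adjusted p = 0.00272). Lox, the oxidase that crosslinks collagen and elastin, was at 9.53, 9.38 and 9.69 in tumours, against 14.19, 14.17 and 14.10 in primary MEFs (-4.62 ± 0.14, adjusted p = 4.65e-06). The microfibril genes Mfap4 and Mfap5 differed by -5.23 ± 0.48 and -3.25 ± 0.30 (adjusted p = 0.000292 and 0.000274). The 3 genes that rose were Tnc, Fn1 and Ltbp1. Tnc, tenascin C, a glycoprotein of wounds and tumour stroma, was at 14.71, 14.12 and 14.76 in tumours, against 12.15, 11.88 and 11.65 in primary MEFs (2.64 ± 0.23, adjusted p = 0.000225). Fn1, fibronectin, was at 12.91, 13.68 and 14.16 in tumours, against 12.35, 11.91 and 12.04 in primary MEFs (1.48 ± 0.32, adjusted p = 0.00968). Ltbp1, which holds latent TGF beta in the matrix, differed by 2.73 ± 0.31 (adjusted p = 0.000701), and Fbln2, a fibulin, by 0.35 ± 0.40 (adjusted p = 0.506).

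Small leucine-rich proteoglycans bind and space collagen fibrils. Of 9 genes 7 were tested, 5 were lower and none higher, with a median of -2.56. Ogn, osteoglycin, was at 6.21, 6.19 and 6.55 in tumours, against 13.66, 13.56 and 13.62 in primary MEFs (-7.30 ± 0.15, adjusted p = 1.65e-06). Fmod, fibromodulin, was not above background in tumours and at least 7.26-fold lower (adjusted p = 5.66e-05), and Lum, lumican, differed by -2.56 ± 0.58 (adjusted p = 0.012), with an adjusted p of 0.05 without primary replicate 1. Dcn and Bgn, decorin and biglycan, were the exceptions. Bgn averaged 14.81 ± 0.38 in tumours and 14.92 ± 0.09 in primary MEFs (SD, n = 3 each), with overlapping groups (-0.11 ± 0.21, adjusted p = 0.692). Dcn was at 14.85, 13.57 and 12.71 in tumours and at 14.58, 14.62 and 14.73 in primary MEFs (-0.93 ± 0.49, adjusted p = 0.16), and without recipient 1 it differed by -1.50 (adjusted p = 0.0104). The 3 dimmer Dcn probes differed by 1.04, -1.69 and -2.40.

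Contractile genes were divided. Of 12 tested genes 4 were higher and 5 lower, with a median of -0.08 that became 0.37 on the deposited values, 0.19 with centred arrays and 0.15 without recipient 2. Myl9, a smooth muscle myosin light chain, was at 7.82, 9.89 and 8.64 in tumours, against 12.14, 12.14 and 11.95 in primary MEFs (-3.29 ± 0.48, adjusted p = 0.00199). Itga11, a collagen receptor chain, differed by -3.37 ± 0.47 (adjusted p = 0.00162) and Tagln, transgelin, by -1.69 ± 0.20 (adjusted p = 0.000833). Acta2, smooth muscle actin, was at 14.69, 13.93 and 14.03 in tumours, against 15.11, 15.06 and 15.05 in primary MEFs (-0.85 ± 0.22, adjusted p = 0.0194), and lost its call without any 1 primary replicate (0.0651 to 0.0723). Ankrd1, a mechanically induced ankyrin repeat gene, was higher at 10.22, 10.37 and 9.58 in tumours, against 7.42, 7.56 and 7.93 in primary MEFs (2.42 ± 0.25, adjusted p = 0.000465). Flna, the actin crosslinker filamin A, differed by 1.28 ± 0.29 (adjusted p = 0.0116), with an adjusted p of 0.0513 without primary replicate 3. Without any 1 primary replicate 2 of the list were higher.

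All 18 genes of growth factors and their binding proteins were tested, 11 were lower and 3 higher, with a median of -1.92, and 5 were higher on the deposited values. Igfbp2, a binding protein for insulin-like growth factors, was at 6.07, 6.03 and 6.03 in tumours, against 12.42, 12.41 and 12.13 in primary MEFs, at least 66.3-fold lower (adjusted p = 1.74e-06). Igf1 itself was at 7.28, 7.74 and 8.14 in tumours, against 12.52, 12.30 and 12.24 in primary MEFs (-4.63 ± 0.23, adjusted p = 2.33e-05). Ptn, the heparin-binding factor pleiotrophin, was at 8.21, 7.70 and 8.78 in tumours, against 14.86, 14.93 and 14.80 in primary MEFs (-6.63 ± 0.27, adjusted p = 1.17e-05), and its relative Mdk, midkine, differed by -4.95 ± 0.70 (adjusted p = 0.00179). Ptn was still at 14.19 ± 0.10 in transformed MEFs (SD, n = 3). Cxcl12, the stromal chemokine that retains CXCR4-bearing cells, was at 7.43, 7.40 and 8.44 in tumours, against 13.15, 12.95 and 12.72 in primary MEFs (-5.18 ± 0.30, adjusted p = 4.02e-05). Gpc3, a glypican of embryonic tissue, differed by -6.19 ± 0.48 (adjusted p = 0.000132), while the glypicans Gpc1 and Gpc6 were higher by 1.30 ± 0.30 and 1.70 ± 0.28 (adjusted p = 0.0119 and 0.00334). The Gpc1 call was lost without primary replicate 3 (adjusted p = 0.0518), when 1 gene of the list was higher. For Mdk, Gpc3 and the calcification inhibitor Mgp, recipient 3 was the highest tumour.

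The fibroblast genes and the muscle, neural, keratinocyte and cartilage lists each had a lower mean level in tumours. The mean level over tested members was 9.95 to 10.38 in tumours and 11.39 to 11.45 in primary MEFs for the fibroblast genes. It was 6.46 to 6.82 in tumours and 8.28 to 8.68 in primary MEFs for muscle, 7.27 to 7.67 and 9.86 to 9.93 for neural and glial genes, 7.10 to 7.84 and 8.74 to 9.84 for keratinocyte genes, and 6.86 to 7.57 and 8.95 to 9.55 for cartilage and bone, each with tumours before primary MEFs. The part of any of these cells in the fibroblast differences was not tested.

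Genes outside the cell type lists that are tied to invasion, Ras and p53 were read next. Matrix metalloproteinases cut collagens and other matrix proteins, and several of their promoters are known for a proximal AP-1 site, TGAGTCA, bound by Fos and Jun proteins. The windows of 3 proteases called higher are shown in the same way, with the site or its reverse complement TGACTCA in capitals. They lie at chr9:7445572-7445871 (Mmp3), chr9:7502092-7502391 (Mmp10) and chr9:7272264-7272563 (Mmp13), on the plus strand.
Mmp3: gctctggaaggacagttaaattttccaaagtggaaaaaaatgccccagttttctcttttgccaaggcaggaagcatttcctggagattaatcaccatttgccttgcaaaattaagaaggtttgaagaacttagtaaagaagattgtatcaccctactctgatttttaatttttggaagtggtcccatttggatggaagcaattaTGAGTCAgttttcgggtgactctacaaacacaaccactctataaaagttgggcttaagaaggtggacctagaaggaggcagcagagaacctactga
Mmp10: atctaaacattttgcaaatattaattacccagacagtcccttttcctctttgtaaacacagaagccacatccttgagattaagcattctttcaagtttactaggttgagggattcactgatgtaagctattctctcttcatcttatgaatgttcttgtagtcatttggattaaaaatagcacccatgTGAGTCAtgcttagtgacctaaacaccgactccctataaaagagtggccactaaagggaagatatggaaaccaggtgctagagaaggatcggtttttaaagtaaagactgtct
Mmp13: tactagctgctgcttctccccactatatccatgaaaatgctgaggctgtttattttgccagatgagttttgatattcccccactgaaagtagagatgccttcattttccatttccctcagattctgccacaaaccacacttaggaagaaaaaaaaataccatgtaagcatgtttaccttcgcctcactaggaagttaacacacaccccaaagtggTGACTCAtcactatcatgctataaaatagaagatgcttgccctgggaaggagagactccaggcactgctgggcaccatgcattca
The match began 46 bases before the start in Mmp3, 63 in Mmp10 and, on the other strand, 35 in Mmp13. Searched on both strands, the site was in a window of 5 of 12 list genes with one in the table (Mmp3, Mmp10, Mmp12, Mmp13 and Plaur) and in 5.2% of all 32851 windows. Mmp12 has a further window without it. The 7 genes without a match were Adamts1, Adamts2, Mmp11, Mmp14, Timp1, Timp2 and Timp3.

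Of 18 matrix proteases and inhibitors 16 were tested, 9 were higher and 2 lower, with a median of 1.03. Mmp10, stromelysin 2, was at 13.57, 14.73 and 14.47 in tumours, against 6.21, 6.26 and 6.15 in primary MEFs, at least 250-fold higher (adjusted p = 8.47e-06). Mmp3, stromelysin 1, was at 14.79, 15.09 and 15.08 in tumours, against 7.75, 8.17 and 7.66 in primary MEFs (7.13 ± 0.19, adjusted p = 2.68e-06). Mmp13, a collagenase, was at 13.25, 13.34 and 14.13 in tumours, against 10.12, 9.76 and 10.28 in primary MEFs (3.52 ± 0.27, adjusted p = 0.000132). In transformed MEFs these 3 genes averaged 10.76 ± 0.74 (Mmp10), 15.01 ± 0.16 (Mmp3) and 9.43 ± 0.18 (Mmp13) (SD, n = 3). Plaur, the urokinase receptor, was at 12.27, 10.86 and 11.83 in tumours, against 8.13, 7.95 and 8.31 in primary MEFs (3.53 ± 0.35, adjusted p = 0.000385). The inhibitor Timp1 rose too, at 14.76, 14.90 and 15.03 in tumours, against 12.43, 12.24 and 12.52 in primary MEFs (2.50 ± 0.15, adjusted p = 4.78e-05). Mmp2 and Mmp14, a gelatinase and its membrane-bound activator, differed by 0.14 ± 0.23 and 0.23 ± 0.24 (adjusted p = 0.643 and 0.469), and Mmp14 by 0.48 without recipient 2 (adjusted p = 0.0464). Mmp12, macrophage elastase, differed by 1.76 ± 0.50 (adjusted p = 0.0264), and lost its call without primary replicate 1 or 2 (0.0904 and 0.1) or recipient 1 or 2 (0.0848 and 0.0567).

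Genes known to respond to Ras and MAP kinase signalling were higher, 15 of 20 tested with 1 lower and a median of 1.95. Areg, amphiregulin, a ligand of the EGF receptor, was at 13.49, 12.17 and 11.67 in tumours, against 6.66, 6.75 and 6.32 in primary MEFs (5.86 ± 0.44, adjusted p = 0.000116). Its relative Hbegf was at 12.79, 11.57 and 11.87 in tumours, against 7.56, 7.66 and 7.38 in primary MEFs (4.54 ± 0.31, adjusted p = 7.7e-05). The ETS factor genes Etv4 and Etv1 differed by 4.03 ± 0.37 and 3.76 ± 0.47 (adjusted p = 0.000275 and 0.00101). The phosphatase gene Dusp6, a feedback inhibitor of ERK, was at 13.74, 13.74 and 13.89 in tumours, against 11.64, 11.60 and 11.81 in primary MEFs (2.11 ± 0.14, adjusted p = 6.76e-05). Hmga1, a chromatin architectural protein, differed by 3.18 ± 0.16 (adjusted p = 2.33e-05) and Ccnd1, cyclin D1, by 2.43 ± 0.16 (adjusted p = 5.97e-05). The gene that fell was Egr1, an immediate early factor, at 12.53, 13.02 and 12.35 in tumours, against 13.73, 13.81 and 13.72 in primary MEFs (-1.12 ± 0.20, adjusted p = 0.00442). The list mean was already 11.41 to 11.46 in transformed MEFs, against 11.54 to 11.85 in tumours and 9.52 to 9.64 in primary MEFs.

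**Figure D3:**
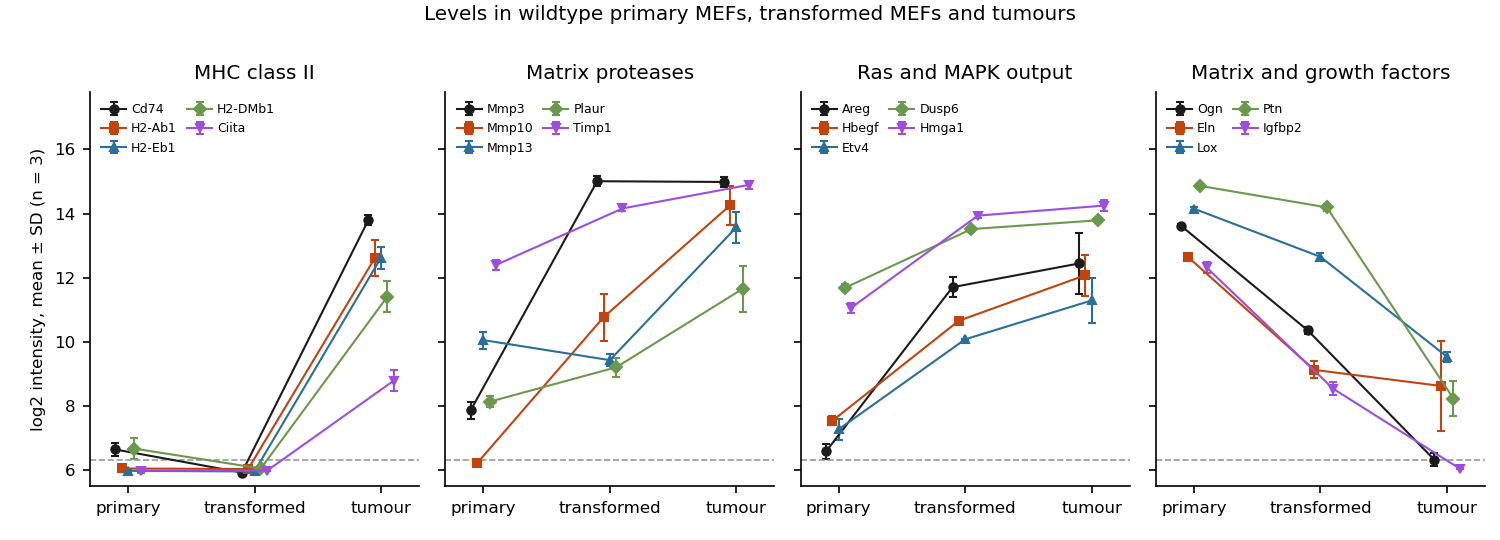
Mean log2 intensity with SD (n = 3) of 20 genes in wildtype primary MEFs, transformed MEFs and tumours, in 4 panels with background as a dashed line. Class II genes are at or near background in both cultures and above it in tumours, protease and Ras output genes are higher in tumours than in primary MEFs, and matrix and growth factor genes are lowest in tumours for 4 of 5 genes shown and close between the last stages for Eln.

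Targets of p53 had more lower than higher calls after joint quantile normalisation. Of 24 genes 21 were tested, and 8 were lower (38.1%) and 3 higher (14.3%), beside 23.4% and 21.2% of all genes. The median was -0.51, and it was -0.07 on the deposited values and -0.25 with centred arrays. Sesn1, a stress-induced sestrin, was at 9.20, 9.41 and 9.78 in tumours, against 11.37, 11.27 and 11.37 in primary MEFs (-1.88 ± 0.18, adjusted p = 0.00035). Fas, a death receptor, differed by -1.21 ± 0.21 (adjusted p = 0.00422) and Trp53inp1, a p53-induced nuclear protein, by -1.65 ± 0.32 (adjusted p = 0.00664). Tnfrsf10b, another death receptor, differed by -2.04 ± 0.16 at its brightest probe and by 0.28, 0.66 and 0.87 at 3 others. Cdkn1a, the cell cycle inhibitor p21, was at 12.26, 12.10 and 11.94 in tumours, against 11.30, 11.59 and 11.37 in primary MEFs (0.68 ± 0.16, adjusted p = 0.0136), with the call lost without primary replicate 1 or 3 (0.0628 and 0.0582). Mdm2, the p53 ubiquitin ligase, differed by 0.89 ± 0.26 (adjusted p = 0.0291), a call lost without any 1 primary replicate (0.0819 to 0.0981) or recipient 1 (0.0791). Higher calls numbered 0, 1 and 1 without primary replicate 1, 2 or 3, and lower calls 5 without primary replicate 2 or 3 and 5 on the deposited values.

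Proliferation genes separated the groups little. Of 26 tested cell cycle genes 5 were lower and none higher, with a median of -0.04. Kif11, a spindle kinesin, was at 7.78, 8.35 and 7.91 in tumours, against 9.19, 9.38 and 8.96 in primary MEFs (-1.16 ± 0.20, adjusted p = 0.00437), and Birc5, survivin, differed by -0.88 ± 0.15 (adjusted p = 0.00426). Mki67, the proliferation antigen Ki-67, was at 11.26, 10.24 and 11.07 in tumours and at 10.57, 10.35 and 10.07 in primary MEFs (0.53 ± 0.29, adjusted p = 0.181), and it was called without recipient 2 (0.83, adjusted p = 0.0112). Top2a, a topoisomerase of dividing cells, differed by 0.01 ± 0.16 (adjusted p = 0.976). Direction in this list turned with the scaling. The median was 0.40 with 10 higher and 1 lower on the deposited values, and 0.22 with 4 higher and 4 lower with centred arrays. Lower calls numbered 2 and 3 without primary replicate 1 or 3 and 9 without recipient 2, and higher calls 2, 1 and 1 without recipient 1, 2 or 3.

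Of 20 glycolysis and hypoxia genes tested 6 were higher, 30% beside 21.2% of all genes, and none was lower, with a median of 0.39 that was 0.24 without recipient 2. Egln3, an oxygen-sensing prolyl hydroxylase induced by hypoxia, was at 11.27, 11.37 and 9.82 in tumours, against 8.27, 8.39 and 7.71 in primary MEFs (2.70 ± 0.43, adjusted p = 0.00297). Slc2a1, the glucose transporter GLUT1, was at 14.35, 13.98 and 13.34 in tumours, against 11.99, 12.61 and 12.17 in primary MEFs (1.63 ± 0.29, adjusted p = 0.00457). Ndrg1, a hypoxia-induced stress gene, differed by 1.78 ± 0.36 (adjusted p = 0.00728). Recipient 3 was the lowest tumour for all 3 genes. Ankrd37, a target of the hypoxia factor, read 10.03, 10.37 and 7.62 in tumours and 7.37, 7.53 and 7.50 in primary MEFs (1.88 ± 0.67, adjusted p = 0.0576), and differed by 2.74 without recipient 3 (adjusted p = 0.000103). The list had 10 higher genes without recipient 3, 3 without any 1 primary replicate, and 5 higher and 1 lower without recipient 2. On the deposited values 13 were higher, with a median of 0.73.

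Class I antigen presentation was higher as well, with 8 higher and 1 lower of 12 tested and a median of 1.52. H2-K1, a classical class I heavy chain, was at 11.39, 11.27 and 9.55 in tumours, against 7.12, 6.94 and 7.76 in primary MEFs (3.46 ± 0.51, adjusted p = 0.00204). H2-T23, the non-classical chain Qa-1, differed by 3.77 ± 0.37 (adjusted p = 0.00036), and Nlrc5, the class I coactivator, was at 9.90, 9.27 and 8.85 in tumours and not above background in primary MEFs (at least 8.28-fold higher, adjusted p = 0.000151). Class I genes resemble each other, so a probe can read more than 1 of them. Unlike class II, class I was also high in transformed MEFs, where the list mean was 10.58 to 10.73, against 9.77 to 10.51 in tumours and 8.59 to 8.88 in primary MEFs. Lower calls numbered 0 without primary replicate 3 or on the deposited values and 2 without recipient 3. Of 18 interferon response genes tested, 6 were lower and 2 higher, with a median of -0.34. The median ran from -0.62 without recipient 1 to -0.15 without primary replicate 3, and was -0.20 with centred arrays and -0.02 on the deposited values. Gbp2, a guanylate-binding protein induced by interferon, was at 9.12, 8.48 and 9.24 in tumours, against 10.94, 11.02 and 10.84 in primary MEFs (-1.99 ± 0.22, adjusted p = 0.000656). Higher calls in the interferon list numbered 0 without primary replicate 1 or 2 or recipient 1, and 1 without primary replicate 3.

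Of 21 chemokine genes 17 were tested, and 3 (17.6%) were higher and 1 (5.88%) lower, beside 21.2% and 23.4% of all genes. On the deposited values 5 were higher. Ccl5, which draws T cells and monocytes, was at 9.94, 9.22 and 8.87 in tumours, against 6.27, 6.25 and 6.61 in primary MEFs (2.96 ± 0.29, adjusted p = 0.000346), with a transformed mean of 9.24. Cxcl16, a scavenger receptor ligand, differed by 2.15 ± 0.15 (adjusted p = 8.88e-05). Pf4, platelet factor 4, was at 11.79, 12.04 and 8.98 in tumours, against 7.55, 7.12 and 7.82 in primary MEFs (3.44 ± 0.77, adjusted p = 0.0113), with an adjusted p of 0.0517 without primary replicate 2. Ccl11, the eosinophil chemokine eotaxin, differed by -1.46 ± 0.41 (adjusted p = 0.0251), a call lost on the deposited values and without any 1 primary replicate, when none was lower. The Ccl11 difference was -0.96 without recipient 2, when 5 genes were lower, and 6 were higher without recipient 3.

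Several of the largest fitted differences belonged to no cell type list. The proliferins Prl2c2 and Prl2c3, prolactin-related hormones of the placenta and of growing fibroblasts, were among the 15 largest fitted rises. Prl2c2 was at 15.12, 13.70 and 14.44 in tumours, against 5.97, 6.13 and 6.00 in primary MEFs, at least 280-fold higher (adjusted p = 1.17e-05), and it averaged 13.63 in transformed MEFs. Proliferin copies are close in sequence and may share probes. Il1b, the inflammatory cytokine interleukin 1 beta, was at 11.44, 13.46 and 10.50 in tumours, against 6.09, 5.99 and 5.94 in primary MEFs, at least 45.6-fold higher (adjusted p = 0.000787), with a transformed mean of 6.02. Il1b was thus above background in tumours alone of these 3 stages, and recipient 2, the tumour with the highest neutrophil alarmins, was its highest sample. Upp1, uridine phosphorylase, was at 14.04, 13.69 and 12.34 in tumours, against 7.63, 7.67 and 7.38 in primary MEFs (5.80 ± 0.42, adjusted p = 9.49e-05). Grem1, an extracellular inhibitor of bone morphogenetic proteins, differed by 5.77 ± 0.34 (adjusted p = 4.29e-05). Crhbp, which binds the stress hormone corticotropin-releasing hormone, was at least 41.6-fold higher (adjusted p = 0.000919).

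Among the largest fitted falls outside the lists, Cldn11, a tight junction claudin, was at 5.96, 5.93 and 5.99 in tumours, against 13.03, 12.98 and 12.81 in primary MEFs, at least 102-fold lower (adjusted p = 1.18e-06). Col26a1, a collagen of developing organs, differed by -6.87 ± 0.25 (adjusted p = 7.94e-06). Both were already near background in transformed MEFs, with means of 6.56 and 6.14. Itm2a, a membrane protein of cartilage and muscle development, was at 6.56, 7.17 and 8.48 in tumours, against 14.40, 14.34 and 13.98 in primary MEFs (-6.84 ± 0.46, adjusted p = 7.14e-05). The imprinted hydrolase gene Mest differed by -5.94 ± 0.26 (adjusted p = 1.46e-05) and Gdf10, a growth factor of the TGF beta family, by -5.82 ± 0.16 (adjusted p = 3.1e-06). Rtl3, a gene derived from a retrotransposon, was at least 56.7-fold lower (adjusted p = 1.74e-06).

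Single samples carried some genes. A gene was noted when 1 sample lay at least 4-fold above, or below, both others of its group, with no test. Recipient 3 stood above the other tumours in 49 genes and below them in 22, recipient 2 in 23 and 10, and recipient 1 in 20 and 6, against 12 and 0, 0 and 2, and 4 and 0 for primary replicates 1, 2 and 3. In recipient 3 the simple epithelial keratin Krt8 was at 14.41, against 7.03 and 7.91 in the other tumours and 8.73, 8.16 and 8.41 in primary MEFs. The 3 arrays of that recipient read 14.62, 14.75 and 13.86 for Krt8. Its partner Krt18 followed, with 9.84, 10.96 and 13.44 in tumours, against 7.72, 6.85 and 7.92 in primary MEFs (3.91 ± 0.85, adjusted p = 0.0101). Without recipient 3 the Krt18 difference was 2.90 (adjusted p = 0.00307), whereas that of Krt8 was -0.96 (adjusted p = 0.0415) in place of 1.35 (adjusted p = 0.562). Cldn6 and Cldn4, claudins of epithelia, were at 10.45 and 9.05 in recipient 3 and at 5.98 to 6.25 in the other tumours. Without recipient 3 Cldn6 differed by -1.41 (adjusted p = 0.00145) in place of 0.03, and Cldn4 by -2.64 (adjusted p = 0.000182) in place of -1.65. Lama5, a basement membrane laminin, was at 10.26 in recipient 3, against 6.44 and 6.25.

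Recipient 2 was the high tumour for several myeloid genes, chosen after their values were seen. Besides S100a8 and S100a9, the resistin-like gene Retnlg was at 6.86, 9.68 and 6.40 in tumours and at 6.08, 5.95 and 6.11 in primary MEFs, and Cxcl2, a chemokine for neutrophils, was at 8.13, 11.40 and 6.61 in tumours and at 6.26, 6.11 and 6.50 in primary MEFs. Retnlg was called higher without recipient 2 (0.58, adjusted p = 0.0311) and Cxcl2 without recipient 3 (3.48, adjusted p = 0.0198). The 3 arrays of recipient 2 read 8.02, 8.54 and 12.48 for Retnlg and 13.10, 13.43 and 15.15 for S100a8, so the array on the third tumour chip was the highest of its 3 for both.

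Primary replicate 1 was the high primary sample for several pancreatic genes, chosen after their values were seen. Amy2b, pancreatic amylase, was at 6.15, 6.01 and 6.52 in tumours, against 13.18, 7.58 and 9.33 in primary MEFs, with replicate 1 the highest. Its call (-3.80, adjusted p = 0.0463) was lost without primary replicate 3 (0.0953) or any 1 recipient (0.0723 to 0.112), and the difference was -2.23 without primary replicate 1. Pnliprp1, a pancreatic lipase-related gene, was at 6.01, 6.00 and 5.93 in tumours and at 11.72, 5.95 and 8.02 in primary MEFs, and the digestive enzyme genes Ctrb1 and Cpa1 were at 10.40 and 9.74 in replicate 1 and at 6.04 to 7.08 in the others. The 4 genes for which replicate 3 lay at least 4-fold above both other primary samples were Scgb3a2, Apoa2, Serpina1b and Ahsg. Scgb3a2, a secretoglobin of the airways, was at 10.12 in replicate 3, against 6.28 and 5.97 in replicates 1 and 2. In replicate 3, Apoa2, a liver apolipoprotein, was at 10.40, against 6.68 and 6.27 in replicates 1 and 2, and Ahsg, the plasma protein fetuin A, was at 8.43, against 6.06 and 6.16. None of the genes given here with values was above background in all 3 tumours.

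**Figure D4:**
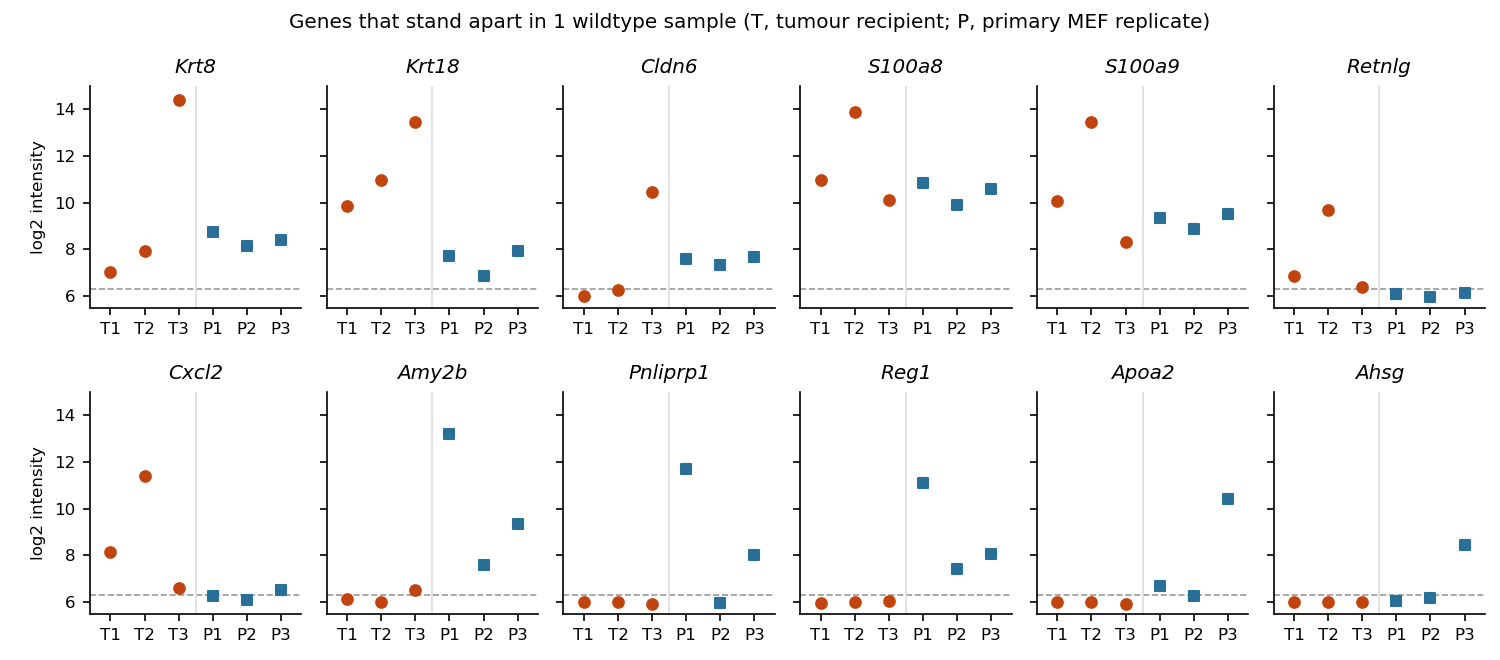
Log2 intensity (vertical axis) of 12 genes in each wildtype tumour recipient (T1 to T3, circles) and each wildtype primary MEF array (P1 to P3, squares), with background as a dashed line. The genes were chosen because 1 sample stands apart: Krt8 and Cldn6 in T3, S100a8 and Cxcl2 in T2, Amy2b and Pnliprp1 in P1 and Apoa2 and Ahsg in P3.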

How the data were processed

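RNA of 30 arrays (Illumina MouseWG-6 V2 BeadChips) had been measured. The authors' deposited value table holds log2 intensities, per its values already scaled within each stage. BeadStudio, R 2.15.1 and limma 3.12.1 are named, with no role, in the submitters' processing notes, and none of the sources gives the background correction. The deposited scanner tables hold intensities that were not normalised and detection p-values, per the file headers. Their 480 value columns match no sample label, so they were used only to name probes and to count on how many arrays a probe was detected (detection p-value under 0.01).

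The log2 values were quantile normalised over all 30 arrays. Of 45281 probes 20254 were detected on at least 3 arrays, and the kept probe with the highest mean stood for a gene. A current RefSeq symbol was found for 27400 probes, 8341 matched through an older symbol, 191 had a symbol that several genes share, and 9349 matched none. limma 3.58.1 (R 4.3.3) fitted the 2 groups alone, with 4 residual and 2.93 prior degrees of freedom, two-sided, and Benjamini-Hochberg adjustment over 13870 genes. All adjusted p-values in the text come from limma. The fit was tested on simulated data. With each group given its own spread, 5.98% of calls were false when 5000 genes were changed and 20.2% when 200 were. With these spreads moderated over genes the shares were 4.36% and 10.2%. With the spread equal in both groups they were 3.47% and 4.08%. Tables were made with Python 3.11.15, pandas 2.3.3 and matplotlib 3.10.9.

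Members and gene lists were chosen with earlier results of these data known. The genes named are, among called genes with groups that do not overlap, the 15 that rose most and the 15 that fell most, with up to 6 called and 3 other members of each list, all study controls and a set of defining markers. Some genes that this rule picks are not reported here. Other genes named or plotted were chosen after their values were seen. Symbols follow RefSeq, and 105 named genes had several kept probes, which shared a sign for 91.

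Alternatives covered the scaling, the filter, the probe rule, the spread model, chip and recipient blocks, a 2-fold minimum, replicate blocks and each sample left out.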

Additional observations from a re-analysis of the deposited data

How the results depend on the processing

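Relative to 2941 genes higher and 3240 lower, the values as deposited gave 5032 and 2045, with 28 fibroblast genes higher in place of 18. They kept all 2941 higher calls and no call changed direction. The array on the third tumour chip alone gave 1829 higher, and 9 fibroblast genes higher. A required change beyond 2-fold gave 482 higher and 661 lower, 18 and 32 for the non-fibroblast markers and 4 and 22 for the fibroblast genes. Detection on at least 9 arrays left 38 non-fibroblast markers lower, from fewer genes tested. Leaving out 1 sample in turn gave 1754 to 3721 genes higher and 2179 to 3878 lower, 38 to 55 and 49 to 64 non-fibroblast markers, and 7 to 20 and 37 to 54 fibroblast genes. The labels give no pairing of samples beyond shared numbers. Deviations of same-numbered samples from their group means correlated at -0.293 to -0.00834 (recipient and primary numbers) and 7.59e-05 to 0.0495 (array numbers). With 3 samples per group these deviations are tied to each other, so the correlations cannot show whether samples were paired. The replicate block gave 2413 higher and 2655 lower with the first numbering, and 4353 and 4367 with the second, where 72 non-fibroblast markers were higher. 1 fit of all 6 groups gave 4045 and 4117, a random recipient block 2246 and 2949, and a random chip block 3265 and 3789. Leaving out 1 tumour at a time, Krt8 ran from -0.96 to 2.73, Gap43 from -0.99 to 1.19 and Cldn6 from -1.41 to 0.82, each reversed without recipient 3. The cause was not tested. Scanner intensities were not normalised with neqc, because their columns match no sample label. Genes near background are limited by the signal, so their bounds understate any larger difference.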

Other observations

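Recipient 1 stood at least 4-fold apart from both other tumours in the genes given next, several of them epithelial. Klk8, a serine protease of the epidermis, was at 11.79, 7.62 and 8.88 in tumours and at 9.02, 9.85 and 9.85 in primary MEFs. Sprr2d, a small proline-rich protein of the cornified envelope, was at 9.11, 6.23 and 6.03 in tumours and at 9.32, 10.91 and 9.91 in primary MEFs. Lamb3, a laminin chain of epithelial basement membranes, was at 11.66, 9.41 and 8.43 in tumours and at 6.66, 6.93 and 6.74 in primary MEFs. So recipient 1 lay within or near the primary range for Sprr2d and far above it for Lamb3. Dlk1, an imprinted Notch ligand-like gene, was at 13.87, 10.38 and 11.21 in tumours and at 14.93, 14.75 and 15.01 in primary MEFs. The transcription factor gene Tfap2a was low in recipient 1, with 7.85, 10.37 and 10.47 in tumours and 8.25, 8.10 and 7.88 in primary MEFs.

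Recipient 2 was the low tumour for Cxcl14 and Timp3. Cxcl14, a chemokine of skin and stroma, was at 10.55, 7.29 and 10.51 in tumours and at 11.51, 11.53 and 11.32 in primary MEFs. Timp3, a matrix-bound metalloproteinase inhibitor, was at 11.54, 9.16 and 11.16 in tumours and at 11.55, 11.44 and 11.77 in primary MEFs. The other recipients were near the primary range for Timp3, and recipient 2 alone was far below it. In the limma test neither gene was called (adjusted p = 0.0905 for Cxcl14 and 0.212 for Timp3), whereas Sprr2d, Lamb3 and Dlk1 were (0.0285, 0.0151 and 0.0205). These 3 calls were lost without any 1 primary replicate (adjusted p = 0.0529 to 0.107), and that of Sprr2d also without recipient 2 or 3 (0.0649 and 0.0654). Cxcl14 was called lower without recipient 2 (-0.92, adjusted p = 0.00208) and Tfap2a higher without recipient 1 (2.34, adjusted p = 0.000496). The genes of both paragraphs were chosen after their values were seen, and the distance of 1 recipient from the others was not tested.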
